A study of Mus musculus with 16 samples.

Results

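The comparison described here is that of p16Ink4a knockout and wild-type mice after voluntary running, measured by RNA-seq of the dentate gyrus. It takes in 8 of the 16 libraries of the series, chosen by their labels: 4 from p16Ink4a -/- mice that ran for 12 days (p16 KO RUN, replicates 13 to 16) and 4 from p16Ink4a +/+ mice that ran for 12 days (p16 WT RUN, replicates 9 to 12). The other 8 libraries come from sedentary mice of the same genotypes (p16 KO CTL, replicates 5 to 8, and p16 WT CTL, replicates 1 to 4), and they serve to show where runners differ from them, and enter the scaling, the filter on low values and the checks over all 16 libraries. All mice were 1-year-old males. The null allele was made in another strain and then backcrossed to C57BL/6, so that flanking sequence of that strain can remain beside the gene, and it leaves p19Arf, the other product of the locus, functional. By the study's methods each library pools 2 mice, so n counts pools, and the p-values measure the spread between pools. The question of the comparison is which genes differ with p16Ink4a genotype when every animal has run.

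p16Ink4a binds the cyclin-dependent kinases CDK4 and CDK6 and keeps them from the D-type cyclins. Without that block these kinases phosphorylate the retinoblastoma protein, E2F factors are released, and a cell can pass from G1 into S phase, then through G2 into mitosis. In the germinal layer under the granule neurons, radial-glia-like stem cells give rise to intermediate progenitors marked by Eomes (Tbr2), then to Dcx-positive neuroblasts and to granule neurons. Running is a known stimulus of this lineage in rodents, and these dividing cells are a small minority of the tissue. In bulk tissue, more cells of a type and more RNA per cell cannot be told apart.

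Values are TPM (a transcript level corrected for gene length and library size), and fold changes are on the scale of log2(scaled TPM + 0.1), p16 KO RUN over p16 WT RUN. A gene is said to have risen or fallen when limma gave an unadjusted two-sided p under 0.05, the threshold of the study, and the adjusted p (Benjamini-Hochberg over all 17317 genes tested) was 1 for each tested gene named below for which none is given. An exact permutation test of 4 against 4 libraries cannot give a p below 0.0286, which every gene without overlap reaches. The relative coverage depth of the libraries was 0.905 to 1.00 in p16 KO RUN and 0.71 to 0.982 in p16 WT RUN, and between 16838 and 17214 genes reached 0.1 TPM in a running library. Defining markers of granule neurons were abundant in both groups: the 11 markers found in the tables summed to 1151 to 1666 TPM in p16 KO RUN and 1043 to 1506 TPM in p16 WT RUN, none of them passed p under 0.05, and Prox1 averaged 145 and 136 TPM. Of the sedentary libraries, p16 WT CTL 2, p16 KO CTL 6 and p16 KO CTL 7 stood apart, with a low level of nuclear long noncoding RNAs (644 to 1160 TPM summed over the list, against 2021 to 2594 TPM in the running libraries), so genotype differences and interactions that use sedentary mice are also given, or counted, without them.

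Cdkn2a itself (mm10 chr4:89274473-89294619, minus strand) was near the floor of detection. It stood at 0.475, 0.189, 0.147 and 0 TPM in p16 WT RUN 9 to 12 and at 0.413, 0, 0 and 0 TPM in p16 KO RUN 13 to 16. The groups overlapped, and the difference was -0.74 ± 0.71 (SE; exact permutation p = 0.371, n = 4 per group). The gene entry covers the transcripts of both p16Ink4a and p19Arf, so it is no check of genotype. No other member of the Ink4 and Cip/Kip families passed the test. Cdkn2d (p19Ink4d), the most abundant, stood at 74.7 to 80 TPM in p16 KO RUN and 73.3 to 80 TPM in p16 WT RUN, and Cdkn1b (p27Kip1) had the smallest p of the family, with a difference of -0.13 ± 0.06 (exact permutation p = 0.114).

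Over the whole transcriptome the runners of both genotypes were close. Of 17317 genes tested, 671 (3.87%) had an unadjusted p under 0.05, 366 of them higher in p16 KO RUN (2.11%) and 305 lower (1.76%), and 426 genes (2.46%) had scaled values that did not overlap between the groups. A threshold of 0.05 would pass 866 genes if no gene differed and the test were exact, more than were found. After adjustment 1 gene remained (0.00577%), Nfix, and the next smallest adjusted p was 0.394. The median absolute log2 difference was 0.07 over all genes and 0.33 over the 671. Without p16 WT RUN 12 the 671 became 1048. All counts below are read against these shares.

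Genes of mitosis and of the G2 to M transition rose in p16 KO RUN at a higher share than genes at large. Of 62 symbols on the list, 61 were in the tables and 56 passed the filter of a mean of 0.1 TPM. Of these 56, 14 rose (25%, against 2.11% of all genes) and none fell. The fold change was above 0 in 45 of the 56 (51.3% of all genes), with a median of 0.31 beside 0.0032 over all genes. The filter uses the p16 KO RUN libraries as well, so the count was repeated with a filter on the other 12 libraries, a choice made after the data were seen: 51 members passed it and 12 of them rose (against 2.04% of all genes). Of those 51, 40 had a fold change above 0, with a median of 0.27 beside 0.0021 over all genes. Cdk1 and Ccnb1, with means of 0.0533 and 0.082 TPM over those 12 libraries, had passed only through p16 KO RUN, where they are high, so they are given as values with no test. The 5 members in the tables that were below the filter were Esco2, Casc5, Bub1, Melk and Sgol1. Summed over the list, the level was 126 to 135 TPM in p16 KO RUN and 117 to 119 TPM in p16 WT RUN, with no overlap.

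Of the kinase at the entry to mitosis and its cyclins, Ccna2 passed the filter without p16 KO RUN, and Cdk1 and Ccnb1 did not. Cdk1, the kinase that drives mitosis, was at 0, 0, 0 and 0.0955 TPM in p16 WT RUN and at 0.2, 0.204, 0.372 and 0.289 TPM in p16 KO RUN. With 3 wild-type libraries listed at 0 and a filter passed only through p16 KO RUN, the order of its libraries is no evidence of a rise. Ccna2 (cyclin A2), which partners CDK2 and CDK1 from S phase on, went from 1.99, 1.42, 1.53 and 1.36 TPM to 2.24, 2.19, 2.28 and 3.05 TPM, without overlap (0.61 ± 0.18, exact permutation p = 0.0286). Ccnb1 (cyclin B1), the cyclin of CDK1 in mitosis, was lower still, at 0.0589 to 0.0773 TPM in p16 WT RUN and 0.108 to 0.296 TPM in p16 KO RUN.

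Genes that act on chromosomes were also among the 14. Mki67 encodes Ki-67, which coats mitotic chromosomes and is the common marker of cycling cells. It measured 0.957, 1.53, 1.55 and 1.59 TPM in p16 WT RUN and 1.97, 1.8, 2.15 and 2.19 TPM in p16 KO RUN, again without overlap (0.53 ± 0.20, exact permutation p = 0.0286). Top2a, the topoisomerase that disentangles sister chromatids, was at 0.242, 0.221, 0.125 and 0.523 TPM in p16 WT RUN and 0.763, 1.36, 0.844 and 0.958 TPM in p16 KO RUN. That is a difference of 1.59 ± 0.36 (exact permutation p = 0.0286). Ncapd2, a condensin subunit and the most abundant member, averaged 14.8 ± 0.908 TPM (SD, n = 4) in p16 WT RUN and 16.8 ± 1.43 TPM in p16 KO RUN, with overlap of 1 knockout library (0.20 ± 0.08). Cenpf, a kinetochore protein, rose by 0.60 ± 0.24, and Cdca8 (borealin of the chromosomal passenger complex) by 0.94 ± 0.34. The condensin subunits Smc2 and Smc4 did not pass, with differences of -0.10 and -0.03.

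Members of the spindle, of cytokinesis and of mitotic exit completed the 14. Pbk, a mitotic kinase, showed the smallest p of the list, at 0, 0.199, 0.165 and 0.113 TPM in p16 WT RUN and 0.835, 0.679, 0.646 and 1.05 TPM in p16 KO RUN (2.13 ± 0.39, adjusted p = 0.598, exact permutation p = 0.0286). Ube2c, the ubiquitin-conjugating enzyme of the anaphase-promoting complex, averaged 0.398 ± 0.388 TPM in p16 WT RUN and 1.33 ± 0.461 TPM in p16 KO RUN, with 1 knockout library inside the wild-type range (1.88 ± 0.64). Prc1 and Kif23, which bundle and cross-link the microtubules of the central spindle, rose by 0.51 ± 0.20 and 1.21 ± 0.42. Tpx2, an activator of Aurora A, rose by 0.48 ± 0.20, and Ckap2, a spindle protein, by 0.89 ± 0.24. In 7 of the 14 the p16 KO RUN mean was under 1 TPM, and none passed after adjustment (adjusted p 0.598 to 1). Depth moves with the groups, and with relative depth as a covariate 6 of the 56 rose (against 1.5% of all genes), of which 4 (Top2a, Ccna2, Ckap2 and Pbk) are among the 12 that rose under the filter without p16 KO RUN. In that fit 47 of the 56 had a fold change above 0, with a median of 0.35. Of the 27 members with a mean of at least 1 TPM, 6 rose (against 1.8%), with a median of 0.12. That mean takes in p16 KO RUN as well. Tpx2, 1 of these 6, averaged 0.982 TPM over the other libraries and passed 1 TPM only through p16 KO RUN, so its call there is no test. Without any 1 of p16 KO RUN 14, 15 or 16, 9 rose. The call held in all 8 fits that left out 1 running library for 5 of those 12 (Top2a, Ccna2, Ckap2, Ube2c and Pbk).

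**Figure D1:**
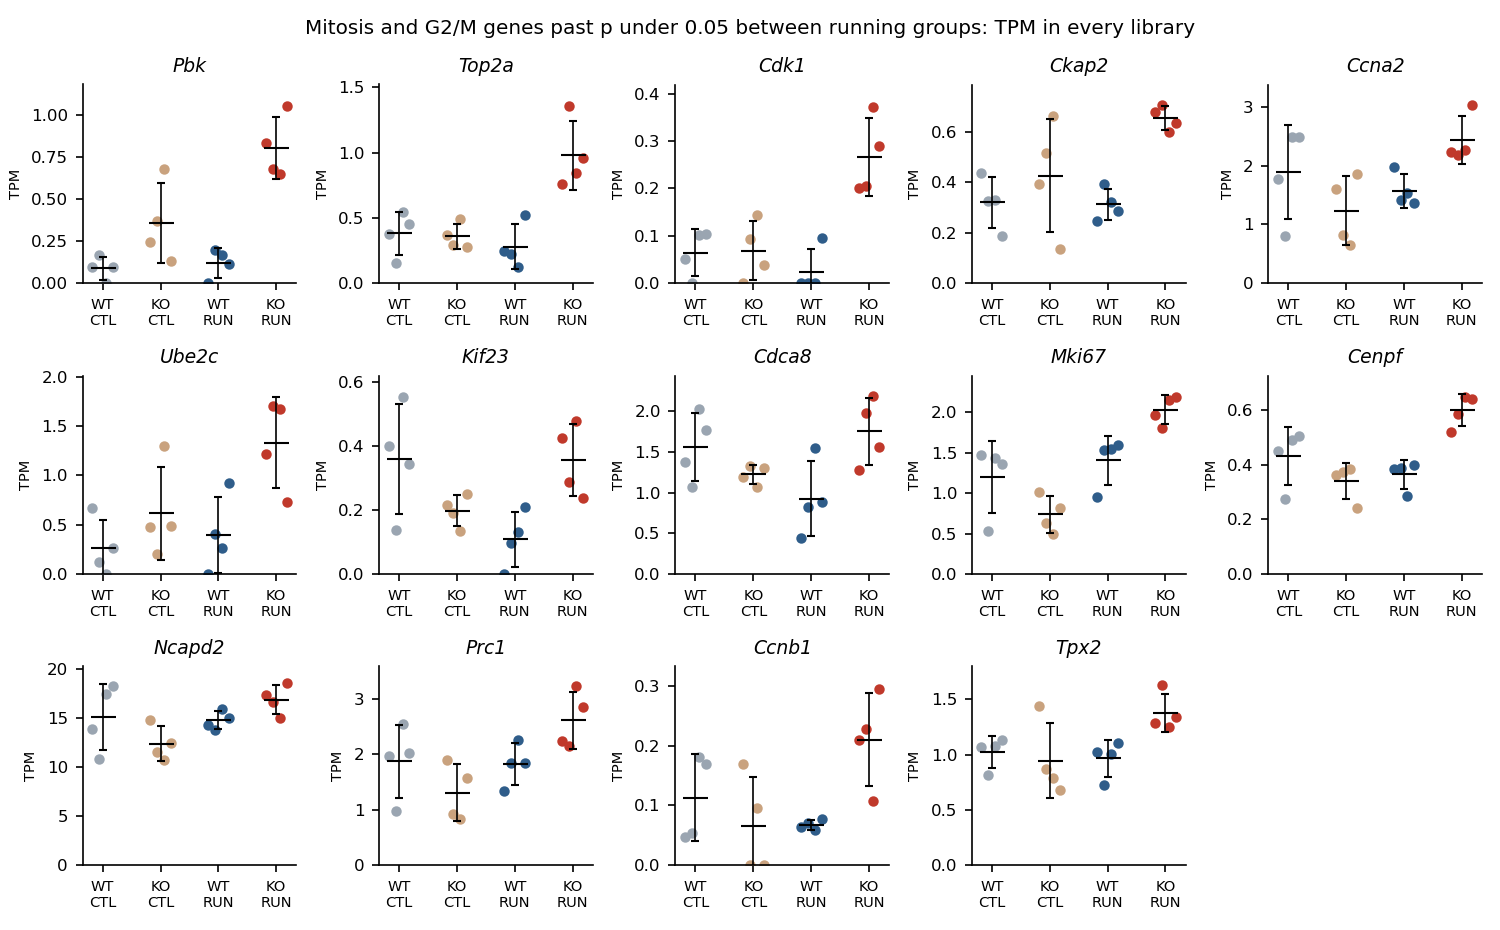
TPM (linear axis from 0) of the 14 mitosis and G2/M genes that rose, in every library of the 4 groups. Points are libraries, bars the mean and SD (n = 4). Cdk1 and Ccnb1 passed the filter only through p16 KO RUN. Pbk and Top2a show the p16 KO RUN libraries above all 4 p16 WT RUN libraries, while Ncapd2 and Cdca8 show overlap.

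Because 12 genes of this list rose under the filter without p16 KO RUN and none fell, promoters are shown. Many genes of late cell cycle carry a cell cycle homology region (CHR, core letters TTTGAA) and CCAAT boxes bound by NF-Y, and the DREAM and MuvB complexes act through the former, downstream of the retinoblastoma family. In RefSeq windows of 300 bases (250 before to 50 after the annotated start, GRCm38.p6, 1 window per symbol, both strands searched), TTTGAA or TTCAAA occurred in 18.1% of 27025 genes. The 14 genes that rose in the main fit include Cdk1 and Ccnb1, which carry no test. Of these 14, 11 had a window, and 10 windows (90.9%) held TTTGAA or TTCAAA, all but that of Ccnb1. The list was rich in it as a whole: 26 of 35 windows (74.3%) of the other tested members held it as well. CCAAT or ATTGG occurred in 37.9% of all windows, in all 11 of the genes that rose and in 22 of 35 (62.9%) of the others. A match of letters is a description of the window, and binding was not measured. The 250 bases before the start are printed for 4 genes that have a window. They were picked by smallest p in the main fit, which Cdk1 entered only through p16 KO RUN, so its choice is no test. Both motifs are in capitals on either strand:

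Top2a, chr11:99024190-99024439, minus strand: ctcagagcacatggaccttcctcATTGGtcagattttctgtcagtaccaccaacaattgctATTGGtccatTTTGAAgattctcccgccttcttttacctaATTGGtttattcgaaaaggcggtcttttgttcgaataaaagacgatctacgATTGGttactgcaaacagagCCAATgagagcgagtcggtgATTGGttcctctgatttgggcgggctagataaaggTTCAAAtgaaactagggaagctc

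Cdk1, chr10:69352913-69353162, minus strand: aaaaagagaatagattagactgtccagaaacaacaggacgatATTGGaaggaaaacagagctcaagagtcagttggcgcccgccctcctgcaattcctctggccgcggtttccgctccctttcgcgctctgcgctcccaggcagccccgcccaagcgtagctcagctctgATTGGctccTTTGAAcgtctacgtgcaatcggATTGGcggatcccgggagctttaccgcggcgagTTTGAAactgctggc

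Ckap2, chr8:22185820-22186069, minus strand: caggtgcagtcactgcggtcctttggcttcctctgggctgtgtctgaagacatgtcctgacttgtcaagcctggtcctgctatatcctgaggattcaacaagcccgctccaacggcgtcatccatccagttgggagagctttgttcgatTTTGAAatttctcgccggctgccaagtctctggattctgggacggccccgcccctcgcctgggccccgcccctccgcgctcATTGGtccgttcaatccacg

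Ube2c, chr2:164769679-164769928, plus strand: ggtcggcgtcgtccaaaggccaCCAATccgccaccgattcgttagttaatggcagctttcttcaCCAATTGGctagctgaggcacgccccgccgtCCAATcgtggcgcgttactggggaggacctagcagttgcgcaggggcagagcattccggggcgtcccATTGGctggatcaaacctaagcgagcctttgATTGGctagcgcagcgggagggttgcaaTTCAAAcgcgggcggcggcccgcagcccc

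In Cdk1 the TTTGAA nearest the start begins at position -15, and in Top2a the TTCAAA begins at -23 and in Ube2c at -29, counted from the first base of the gene as 1 with no 0. In Ckap2 the only TTTGAA begins at -101. CCAAT letters occur on either strand 1 time in Ckap2, 3 times in Cdk1 and 6 times each in Top2a and Ube2c, where 2 of the 6 overlap in the run CCAATTGG.

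Earlier cell cycle steps are covered by 2 other lists. Of 44 genes of DNA replication and S phase, 2 rose and 1 fell (4.55% and 2.27%, against 2.11% and 1.76% of all genes), with a median of 0.02. Gins1, a subunit of the replicative helicase, rose by 0.89 ± 0.31, from 0.596 to 1.54 TPM in p16 WT RUN to 1.5 to 3.1 TPM in p16 KO RUN. Chaf1b, of the chromatin assembly factor that follows the fork, rose by 1.49 ± 0.47. Prim1, the catalytic primase subunit, fell by 0.27 ± 0.11. Pcna, the sliding clamp and the most abundant of the list, averaged 78.6 and 81.8 TPM (-0.05). Of the 20 tested genes for D cyclins, CDK4 and CDK6, retinoblastoma proteins and E2F factors, the direct partners of p16Ink4a and what lies below them, none passed (median 0.04). Cdk4 averaged 69.3 TPM in each group and Ccnd2 67.1 and 67.9 TPM. The difference between lists was not tested as such.

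Markers of intermediate progenitors and young neurons were higher in p16 KO RUN more often than genes at large, and no stem cell marker passed. Of 18 progenitor, neuroblast and immature neuron markers, 4 rose (22.2%, against 2.11% of all genes), none fell and 16 had a fold change above 0, with a median of 0.20. Eomes (chr9:118478189-118486132), the T-box factor of intermediate progenitors, was at 0, 0.088, 0.109 and 0.237 TPM in p16 WT RUN and 0.389, 0.77, 0.762 and 0.639 TPM in p16 KO RUN. The groups did not overlap (1.92 ± 0.42, adjusted p = 1, exact permutation p = 0.0286), and the call held in each of the 8 fits that left out a running library. Igfbpl1, a gene of late progenitors and neuroblasts, was at 0.714, 0.339, 0.325 and 1.7 TPM and at 0.89, 2.15, 1.54 and 2.6 TPM, with overlap (1.30 ± 0.50, exact permutation p = 0.0857). Sox4, a factor of early neuronal differentiation, rose by 0.28 ± 0.11. Calb2 (calretinin), which marks immature granule neurons and mossy cells, averaged 212 TPM against 153 TPM (0.46 ± 0.17). It is also on the thalamus and habenula list, whose median was 0.46. In those 8 fits Calb2 was called in 7, Igfbpl1 in 4 and Sox4 in 2, and 2 of the 4 calls were lost without any 1 of p16 WT RUN 10, p16 WT RUN 11, p16 KO RUN 14 or p16 KO RUN 16.

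Dcx, the marker of neuroblasts, did not pass and lay the other way, at 4.04, 4.17, 4.65 and 4.47 TPM in p16 KO RUN and 4.61, 4.17, 5.36 and 4.8 TPM in p16 WT RUN (-0.11 ± 0.11, exact permutation p = 0.229). Tubb3, Prdm8 and Neurod1, the other abundant members, differed by 0.05, 0.03 and 0.13. None of the 19 tested markers of neural stem cells and radial glia passed, 13 had a fold change above 0, and their median was 0.05. The difference between this list and that of progenitors was not tested. Of the 4 most abundant, Aldoc averaged 859 and 866 TPM, Gfap 630 and 633 TPM, Hopx 117 and 142 TPM (-0.31 ± 0.21) and Thrsp 126 and 125 TPM in p16 KO RUN and p16 WT RUN. Gfap and Aldoc are also made by astrocytes. Tfap2c, a stem and progenitor factor in the study's own selection, was below the filter, at 0.27, 0.249, 0.0945 and 0.277 TPM in p16 KO RUN and 0, 0, 0.112 and 0.0412 TPM in p16 WT RUN (exact permutation p = 0.0571).

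**Figure D2:**
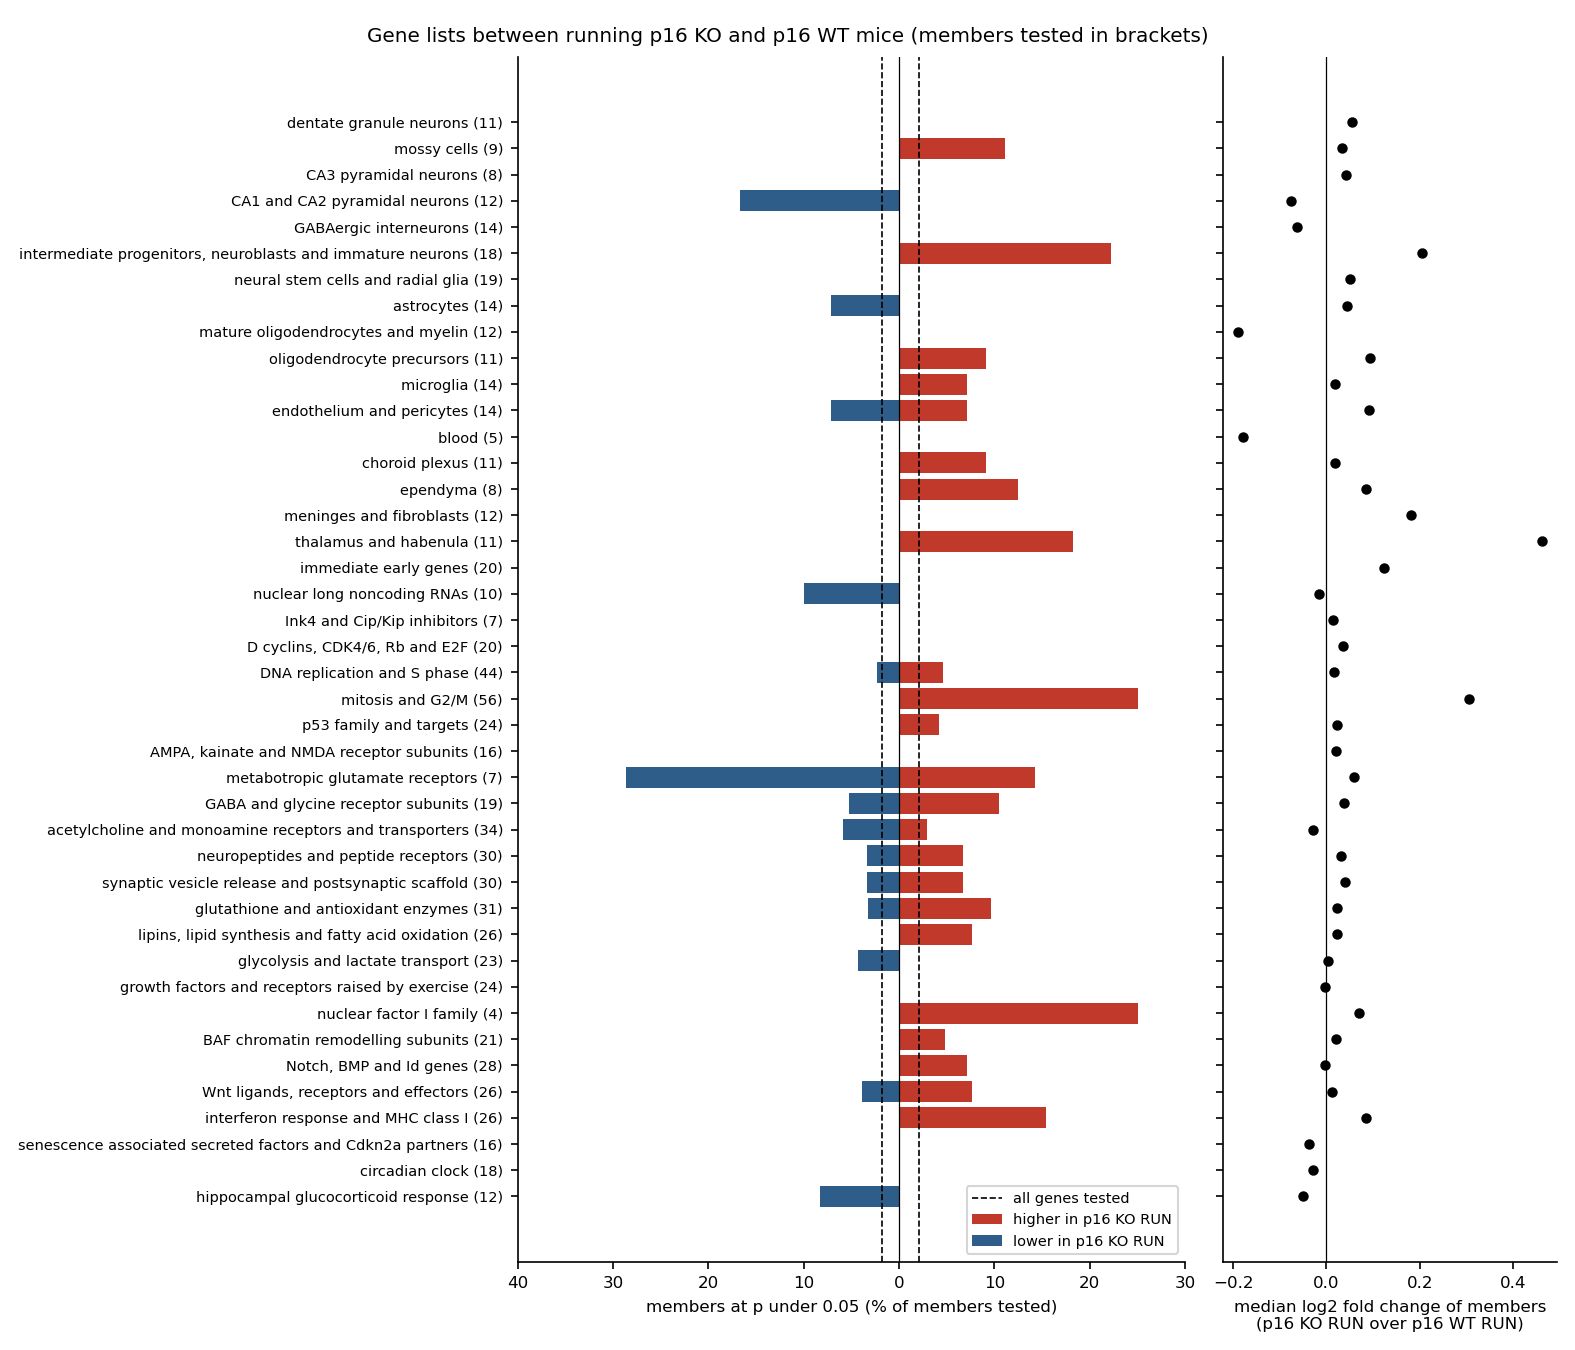
For each of 42 gene lists, the bars give the members that rose (red) or fell (blue) at p under 0.05 as a percentage of the members tested (number in brackets), with dashed lines at 2.11% and 1.76%, the shares over all genes. The right panel gives the median log2 fold change, 0.31 for mitosis and G2/M and 0.46 for thalamus and habenula.

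The genotype difference in mitosis genes was set beside that in sedentary mice, which share no library with it. In sedentary mice 2 of the 56 members were higher in knockouts and 2 lower at p under 0.05 (3.15% and 3.54% of all genes), with a median of -0.12, and without the 3 libraries that stand apart 0 were higher (3.19%), 1 was lower (3.48%) and the median was -0.23. Of the 14 genes that rose in runners, 9 had a sedentary difference below 0 (12 without the 3 libraries), and 1, Pbk, passed there (1.25), though not without the 3 libraries (0.87). Mki67, for one, was at 1.01, 0.63, 0.491 and 0.818 TPM in p16 KO CTL and at 1.47, 0.527, 1.43 and 1.36 TPM in p16 WT CTL. These tallies over 56 and 14 members use the filter that includes p16 KO RUN. Among the 14 they count Cdk1 (0.06, and -0.63 without the 3 libraries) and Ccnb1 (-0.41 and -0.44), which passed only through p16 KO RUN. The genotype by running interaction tests whether the difference in runners exceeds that in sedentary mice, and it shares the running libraries with the comparison. Of the 51 members that pass the filter without p16 KO RUN, 10 had an interaction above 0 with p under 0.05 (against 2.91% of all genes that pass it) and 0 had one below 0 (against 2.55%). Without the 3 libraries these numbers were 11 (against 3.75%) and 1 (against 3.52%), and no gene passed after adjustment in either case. Eomes passed as well, with an interaction of 2.07 with and without the 3 libraries.

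**Figure D3:**
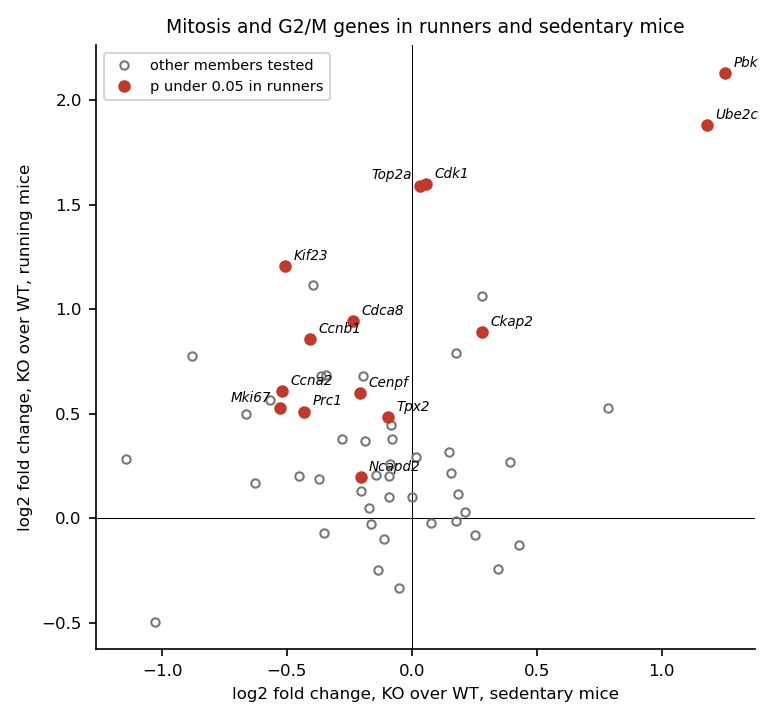
Log2 fold change of knockout over wild type in sedentary mice (horizontal) and in runners (vertical) for the 56 mitosis and G2/M genes tested. Filled points are the 14 that rose in runners, of which 9 lie left of 0. Cdk1 and Ccnb1, among the 14, passed the filter only through p16 KO RUN. Pbk lies above 0 on both axes, at 1.25 and 2.13.

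Nfix, a nuclear factor I transcription factor that controls when hippocampal progenitors differentiate, was the gene past adjustment. It lies at chr8:84704712-84800338 on the minus strand. In p16 WT RUN it stood at 102, 110, 104 and 100 TPM and in p16 KO RUN at 262, 316, 255 and 312 TPM, a difference of 1.46 ± 0.08 (limma, adjusted p = 0.000313; exact permutation p = 0.0286, the smallest the design allows). The read coverage of the gene was 174 to 226 in p16 WT RUN and 582 to 695 in p16 KO RUN. In sedentary mice Nfix took a high and a low level within each genotype: 274, 86, 286 and 272 TPM in p16 WT CTL and 92.6, 233, 76.4 and 230 TPM in p16 KO CTL, where the genotypes did not differ beyond their spread (-0.51 ± 0.48, and -0.89 ± 0.38 without the 3 libraries that stand apart, also not past the threshold). With the spread estimated from all 16 libraries, the difference between running groups kept an unadjusted p under 0.05 and had an adjusted p of 1. Of the 10094 genes whose mean reached 10 TPM, 25 had a gap of at least 1 on the log2 scale that split the 16 libraries into a high and a low set of at least 3 each, and in all 25 at least 1 group fell on both sides (a count chosen after the data were seen). Nfix, which has a single gene entry, is 1 of the 25. Among them are ribosomal and globin genes with near-identical copies (Rps27, Rps27rt, Hbb-b1), and also genes outside these families, such as Ablim1, Jazf1, Homer2, Abi2 and Nsg2. Whether the way reads were assigned has a part in the Nfix levels was not tested. Its relatives did not pass: Nfia, Nfib and Nfic differed by 0.10, -0.03 and 0.04.

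Aqp4, the water channel of astrocyte endfeet, is another of the 25. It fell by 1.61 ± 0.45 (adjusted p = 1, exact permutation p = 0.0857), from 89.2, 99.2, 112 and 87.2 TPM in p16 WT RUN to 24.8, 19.1, 20.9 and 97.4 TPM in p16 KO RUN, so that 1 knockout library kept the wild-type level. In sedentary mice the low level occurred in both genotypes, at 18.5 TPM in p16 WT CTL 4 and at 28.6 and 18.7 TPM in p16 KO CTL 5 and 8. Without that library, p16 KO RUN 16, the difference was -2.15 and the adjusted p 0.000585. None of the other 13 astrocyte markers passed. Prdx6, a peroxiredoxin, was similar in form: it fell by 0.63 ± 0.23, with 3 wild-type libraries at 145 to 163 TPM and the fourth at 72.1 TPM, beside 66.8 to 92.7 TPM in p16 KO RUN.

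**Figure D4:**
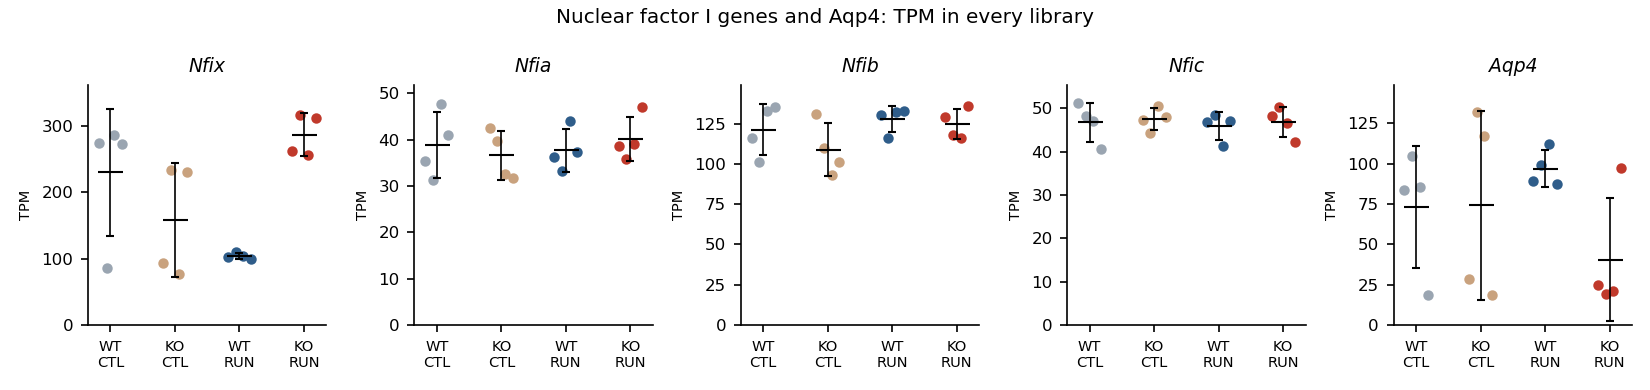
TPM (linear axis from 0) of Nfix, Nfia, Nfib, Nfic and Aqp4 in every library, with mean and SD (n = 4). Nfix is between 100 and 110 TPM in p16 WT RUN and between 255 and 316 TPM in p16 KO RUN, and a high level (230 TPM or more) and a low one (92.6 TPM or less) occur within each sedentary group. Aqp4 has a high and a low level within p16 KO RUN and within each sedentary group.

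Where the mean reached 1 TPM in either group and the groups did not overlap, Id3 had the smallest p of those that rose after Nfix. Id3, an inhibitor of basic helix-loop-helix factors and a target of BMP signalling, was at 51.9, 54.5, 52.9 and 52.5 TPM in p16 WT RUN and 72.5, 65.8, 65.3 and 78.9 TPM in p16 KO RUN (0.42 ± 0.06, adjusted p = 0.394). Smek1, a regulatory subunit of protein phosphatase 4, rose by 0.44 ± 0.08 (adjusted p = 0.598), and Cxcr4, the receptor of the chemokine CXCL12 that guides neural precursors, rose from 3.67 to 4.28 TPM to 4.95 to 6.12 TPM (0.46 ± 0.11). Vat1l rose by 0.52 ± 0.13 and Acadm, the medium-chain acyl-CoA dehydrogenase of fatty acid oxidation, by 0.22 ± 0.05. The other 4 that the rule names, Mir7211, Gm23363, Mir761 and Nup62cl, were at most 0.593 TPM in every p16 WT RUN library, with adjusted p of 0.598 and 0.827 for the first 2. The first 3 of these are short entries. Such entries can take reads of genes they lie in, and they are uncertain: 45 of 572 entries named Mir (7.87%) and 10 of 108 small nucleolar RNAs (9.26%) are among the 671, against 3.87% of all genes. The same holds for Mir703, Mir186, Snord15b and Snord57, which fell by 0.88 to 1.76, and Gm11128 (2.16) rose from a level of 0 in 2 wild-type libraries.

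Of those that fell, under the same limits on mean and overlap, Gt(ROSA)26Sor, the ubiquitously transcribed Rosa26 locus, had the smallest p, at 15.1, 14.3, 12.1 and 12.8 TPM in p16 WT RUN and 9.77, 8.36, 8.33 and 8.73 TPM in p16 KO RUN (-0.61 ± 0.10, adjusted p = 0.452). Ctbp2, which gives a transcriptional corepressor and the ribbon protein RIBEYE, fell by 0.61 ± 0.13, and Mthfd2, a mitochondrial enzyme of folate metabolism that is high in dividing cells, by 0.44 ± 0.11. Changes in the abundant genes were small and tight. Sh3bgrl went from 92.8 to 95.6 TPM to 82.4 to 85.3 TPM and fell by 0.16 ± 0.04, and Fam103a1, a partner of the mRNA cap methyltransferase, by 0.18 ± 0.04. Igip fell by 0.23 (adjusted p = 0.66), and Ythdf3, Fundc2, Pcgf1 and Fut9 fell by 0.19, 0.21, 0.24 and 0.26. Pcgf1, a Polycomb subunit, passed in sedentary mice too, lower in knockouts by the fit (-0.30, and -0.32 without the 3 libraries). By size of change, Fitm1, a protein of lipid droplet formation, rose by 2.07 ± 0.58 from at most 0.642 TPM, and Tmem254c fell by 1.75 ± 0.60, with 8.23 to 22.8 TPM in p16 WT RUN and 0.898 to 7.24 TPM in p16 KO RUN.

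**Figure D5:**
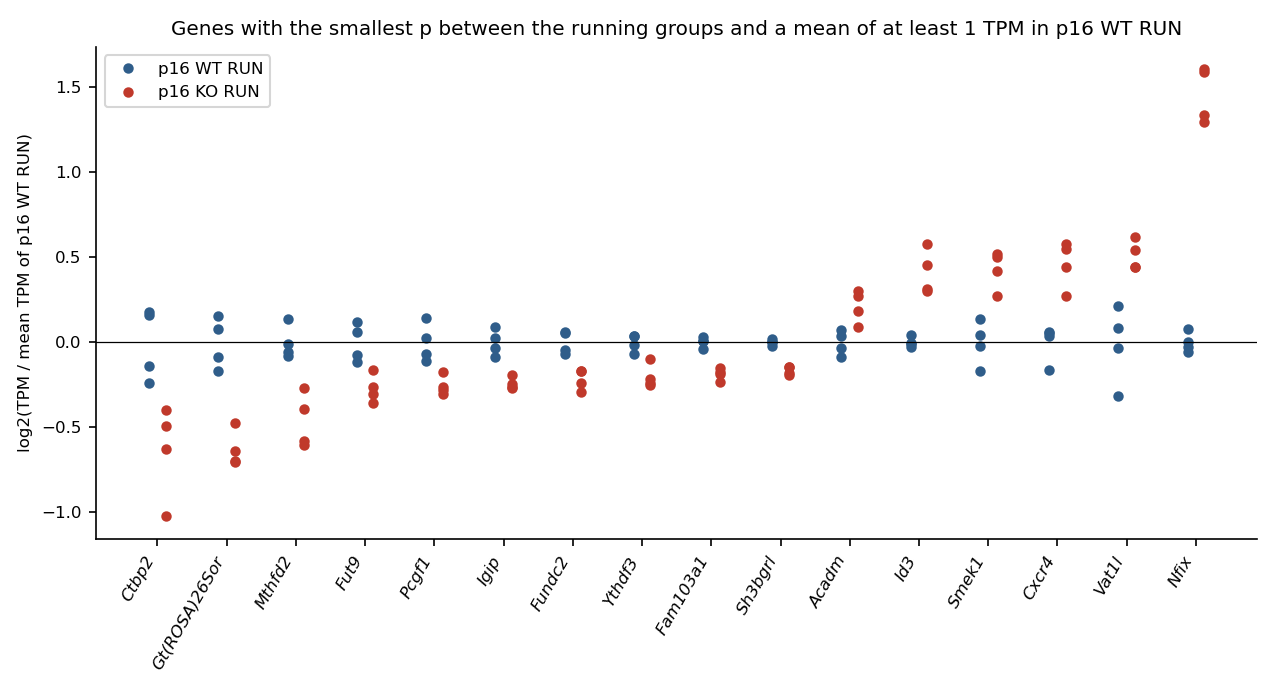
Log2 of TPM over the p16 WT RUN mean in each running library, for genes of smallest p with a p16 WT RUN mean of at least 1 TPM. Blue points are p16 WT RUN and red points p16 KO RUN, and they do not overlap in any gene shown. Apart from Nfix the red points lie within about 1 log2 unit of 0.

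In lists of receptors and synaptic genes, single members rose or fell. Over all genes the shares were 2.11% higher and 1.76% lower. Of 7 metabotropic glutamate receptors tested, 1 rose and 2 fell (14.3% and 28.6%), with a median of 0.06. None of 16 AMPA, kainate and NMDA receptor subunits passed. Of 19 GABA and glycine receptor subunits, Gabbr2, of the GABA-B receptor, rose from 255 to 279 TPM to 284 to 299 TPM (0.14 ± 0.05). Glra3, a glycine receptor alpha subunit, rose by 0.55 ± 0.20 and Glrb, the beta subunit, fell by 0.14 ± 0.05. Of 34 acetylcholine and monoamine genes, 1 rose and 2 fell (2.94% and 5.88%). The vesicular monoamine transporter Slc18a2 rose by 0.35 ± 0.14, and the receptors Drd5 and Chrm5 fell by 0.26 ± 0.08 and 0.85 ± 0.35. With each running library left out in turn, Slc18a2 kept p under 0.05 (limma) in 2 of 8 fits, Chrm5 in 3 and Drd5 in 8.

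Of 30 genes of neuropeptides and peptide receptors, 2 rose and 1 fell (6.67% and 3.33%, against 2.11% and 1.76% of all genes). Adcyap1, which gives the peptide PACAP, rose by 0.32 ± 0.12. Lepr, the leptin receptor, was at 0.975, 0.998, 0.955 and 0.702 TPM in p16 WT RUN and 1.39, 1, 1.55 and 2.11 TPM in p16 KO RUN (0.65 ± 0.24). Ramp3, a partner of the calcitonin-like receptors, fell by 0.59 ± 0.22. Of 30 genes of vesicle release and the postsynaptic scaffold, 2 rose and 1 fell (6.67% and 3.33%), with a median of 0.04. Dbn1 (drebrin, an actin-binding protein of spines) rose from 372 to 416 TPM to 421 to 471 TPM (0.15 ± 0.05) and Unc13d, a vesicle priming factor, by 0.51 ± 0.21. The call held in 8 of 8 leave-one-out fits for Dbn1 and in 3 for Unc13d. Immediate early genes, which report recent neuronal activity, did not pass in any of 20, though 18 had a fold change above 0 (median 0.12).

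Several metabolic and immune genes rose. Of 31 glutathione and antioxidant genes, 3 rose and 1, Prdx6, fell (9.68% and 3.23%, against 2.11% and 1.76% of all genes). Gstm2, a glutathione transferase, was at 2.87, 2.18, 2.24 and 2.58 TPM in p16 WT RUN and at 4.45, 4.08, 3.04 and 3.56 TPM in p16 KO RUN, without overlap (0.60 ± 0.16). Sod3, the extracellular superoxide dismutase, rose by 0.25 ± 0.06 and Mocos, which sulfurates the molybdenum cofactor, by 0.39 ± 0.17. Mocos was called in 3 of 8 leave-one-out fits, and Gstm2 and Sod3 in 8. Of 26 lipid genes, Acadm rose as given above and Lpin2, a phosphatidate phosphatase, rose from 64.1 to 74.1 TPM to 76.8 to 79.4 TPM (0.18 ± 0.07). Of 23 genes of glycolysis, galactose use and lactate transport, Galk1 (galactokinase) fell by 0.29 ± 0.09.

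Of 26 interferon response and MHC class I genes, 4 rose (15.4%, against 2.11% of all genes) and none fell. These were the class I heavy chains H2-K1 (0.21 ± 0.07) and H2-D1 (0.22 ± 0.07), their light chain B2m (0.10 ± 0.04) and the immunoproteasome subunit Psmb8 (0.32 ± 0.10). B2m was called in 3 of 8 leave-one-out fits, and H2-K1, H2-D1 and Psmb8 in 8. H2-D1 was at 42.4 to 46.2 TPM in p16 WT RUN and 48.3 to 56.3 TPM in p16 KO RUN. In sedentary mice the differences of these 4 were 0.24, 0.22, 0.21 and 0.37 in the same order, of which H2-K1 passed, though not without the 3 libraries. Heavy chain genes of different H2 loci are near-identical over long stretches, so their shares of the reads are uncertain.

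In signalling and transcription lists, single genes moved. Of 28 Notch, BMP and Id genes, Id3 rose as given above and Bmp6 rose by 0.55 ± 0.19. Of 26 Wnt genes, the receptor Fzd7 rose by 0.25 ± 0.07, the receptor Fzd3 fell by 0.14 ± 0.05 and Tcf7l2, the nuclear effector, rose by 0.46 ± 0.13. Dpf3, a subunit of BAF chromatin remodelling complexes, rose from 22.6 to 25.4 TPM to 26.3 to 31 TPM (0.25 ± 0.07). Trp73, of the p53 family, was at 2.16 to 2.64 TPM in p16 WT RUN and 3.05 to 3.24 TPM in p16 KO RUN (0.38 ± 0.13), the only 1 of 24 p53 family genes and targets to pass. Of 12 glucocorticoid-responsive genes Zbtb16 fell by 0.19 ± 0.08, and of 10 nuclear long noncoding RNAs Snhg14 fell by 0.34 ± 0.10. None of 16 secreted factors of senescence and Cdkn2a partners, of 18 clock genes or of 24 growth factors and receptors of exercise passed.

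Markers of other cell types were read for a shift in dissection or makeup. The thalamus and habenula list had the highest median of the 42 lists, 0.46, with 2 of 11 that rose (Tcf7l2 and Calb2, the latter also on the mossy cell and young neuron lists). Its sum was 250 to 333 TPM in p16 KO RUN and 185 to 258 TPM in p16 WT RUN, and none of its 12 genes was at 0 in all running libraries. Calb2 averaged 212 of 286 TPM and 153 of 217 TPM of that sum. The sums overlapped with Calb2 and also without it, at 53.4 to 90.6 TPM and 52.3 to 72.7 TPM, with a median difference of 0.35 over the other 10 genes tested. Its part in the changes of Calb2 and Tcf7l2 was not tested. Of 12 CA1 and CA2 markers 2 fell: Fibcd1, a CA1 marker, by 0.54 ± 0.20, and Rgs14, a CA2 marker that is also a regulator of G protein signalling, by 0.24 ± 0.07, and the list's sums overlapped (1080 to 1199 TPM and 1133 to 1144 TPM). Of 12 myelin genes none passed, with a median of -0.19. Gpr17 of committed oligodendrocyte precursors rose by 0.43 ± 0.17, P2ry12 of microglia by 0.22 ± 0.08, and Pecam1 of endothelium by 0.26 ± 0.11. Rgs5 of pericytes fell by 0.31 ± 0.13. Folr1 of choroid plexus rose by 1.63 ± 0.68 from at most 0.105 TPM, and Rarres2 of ependyma by 0.64 ± 0.20, from 6.18 to 11.8 TPM to 12.3 to 14.7 TPM. These 5 risers were each the only 1 of their list (7.14% to 12.5%, against 2.11% of all genes). Oligodendrocyte precursor markers had a median of 0.09 (9 of 11 above 0) and microglia markers 0.02 (8 of 14). Endothelium and pericyte markers had 0.09 (9 of 14), choroid plexus 0.02 (6 of 11) and ependyma 0.08 (5 of 8). Pecam1 and Folr1 were called in 2 of 8 leave-one-out fits, Rgs5 in 3, Gpr17 in 4, P2ry12 in 7 and Rarres2 in 8. Interneuron, CA3, blood and meningeal markers had no call.

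The genes called in runners were also looked up in sedentary mice. Of the 671 genes called in runners, 76 were also called in sedentary mice (11.3% of the 671, beside 6.69% of all genes, and 6.56% of the 1158 called there, beside 3.87% of all genes), 44 in the same direction and 32 in the opposite one. Without the 3 sedentary libraries, where 1156 genes were called (6.68%), the numbers were 65, 36 and 29. Among the 44 were Rarres2 (0.64 and 1.16), H2-K1, Bmp6 (0.55 and 0.48), Sox4 (0.28 and 0.35), Gpr17 (0.43 and 0.56), P2ry12 (0.22 and 0.51) and Pbk. Of these 7, Rarres2 alone passed in sedentary mice without the 3 libraries as well. The interaction had 949 genes at an unadjusted p under 0.05 (5.48%), 1255 (7.25%) without the 3 libraries, and 0 past adjustment by limma in either case. The neighbours of the null allele were counted too: within 10 Mb of Cdkn2a on chromosome 4, 1 of 56 tested genes rose and 1 fell, and within 30 Mb 5 of 260 rose and 1 fell, against 2.11% and 1.76% of all genes.

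The study selected genes that differ in runners and also show an interaction, by counts of the same libraries, so these lists are not independent evidence of their direction. Of the 29 genes taken from comparisons with sedentary wild type, 22 passed here, 14 higher and 8 lower. Of the 106 taken from comparisons with sedentary knockouts, 104 were tested and 79 passed, 26 higher and 53 lower. Those that did not pass on the TPM scale include Zic4 (0.68 ± 0.42, exact permutation p = 0.2), Nlrc5 (0.55 ± 0.37, exact permutation p = 0.171), Insm2 (0.68 ± 0.38, exact permutation p = 0.143) and the DNA polymerase subunit Pole (0.40 ± 0.18, exact permutation p = 0.0286), whose groups did not overlap. Klhl4 and Ttc9 fell by 0.32 ± 0.13 and 0.34 ± 0.14.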

How the data were processed

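Bulk RNA-seq of the dentate gyrus was used from 16 libraries, 4 per group. Per the labels and the study's methods, the authors demultiplexed reads with bcl2fastq 2.20, masked adapters with cutadapt 1.11, trimmed with ERNE, aligned them to mm10 with STAR and assembled abundances with StringTie. Their own tests used DESeq2 on HTSeq counts, which were not used here. The deposited gene tables give TPM, FPKM and coverage per gene entry, as the authors' StringTie run wrote them. TPM was analysed, coverage gave the relative depth, and FPKM was not used. Entries were summed per gene name (24421 names), scaled by the median ratio over the 13226 genes that reached 1 TPM in each of the 16 libraries, and kept where the mean was at least 0.1 TPM.

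Differences of log2(scaled TPM + 0.1) were tested with limma 3.58.1 in R 4.3.3 (moderated, with a variance trend), on the 8 running libraries for the main comparison, on the 8 sedentary ones, and on all 16 for the interaction. Fold changes on this scale understate changes of low genes. The steps were tested on simulated data. Single genes also had a two-sided exact permutation test over 70 assignments, whose smallest p is 0.0286. TPM keeps no read counts, so no counting interval is given.

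The members, the gene lists and the tests were chosen with earlier results of these data known. Named are the Ink4 and Cip/Kip genes, genes past adjustment, the 10 genes of smallest p in each direction without overlap and with a mean of at least 1 TPM in either group, the 5 of largest change in each direction, called members of each list with up to 4 of its most abundant ones, and genes of the study's selections. Alternatives were other filters (a mean of 1 TPM, none), pseudocounts (0.01, 1), scalings, gene summaries, covariates, a fit without the trend, all 16 libraries in 1 fit, and each library left out. Some genes that the rule names are not reported here.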

Additional observations from a re-analysis of the deposited data

Results flagged for a closer look

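Among the named genes that pass the filter on low values without p16 KO RUN, 46 had a genotype difference in runners that differed from that in sedentary mice, by the genotype by running interaction of limma over all 16 libraries at an unadjusted p under 0.05 (5.48% of all genes tested), and none of them passed after adjustment. Without p16 WT CTL 2, p16 KO CTL 6 and p16 KO CTL 7, all 46 had the same direction and 37 had p under 0.05. The other 9 were Cxcr4 (0.41 in that fit), Gm11128 (1.88), Lepr (0.62), Ramp3 (-0.45), Gstm2 (0.75), Mocos (0.66), Trp73 (0.50), Nlrc5 (0.95) and Pole (0.56). Many were named because they differ in runners, and the interaction uses the same running libraries, so the number is not read as a share. The values that follow are from all 16 libraries. They are interactions on the log2 scale, above 0 where knockout over wild type was higher in runners. For mitosis and G2/M genes they were Mki67 (1.05), Top2a (1.56), Ccna2 (1.13), Cdca8 (1.18), Cenpf (0.81), Kif23 (1.71), Prc1 (0.94) and Ncapd2 (0.40). For receptors and synaptic genes they were Grm3 (-0.47), Gabbr2 (0.20), Glrb (-0.26), Lepr (1.02), Ramp3 (-0.78), Unc13d (0.83) and Dbn1 (0.35). Among the other genes, the interaction was above 0 for Nfix (1.97), Smek1 (0.62), Cxcr4 (0.47), Fitm1 (2.85), Eomes (2.07), Gstm2 (0.63), Mocos (0.78), Lpin2 (0.33), Dpf3 (0.40), Trp73 (0.69), Nlrc5 (1.09), Pole (0.78), Gm11128 (1.82) and Insm2 (1.02). It was below 0 for Gt(ROSA)26Sor (-0.55), Igip (-0.35), Ctbp2 (-1.0), Fam103a1 (-0.38), Sh3bgrl (-0.43), Fundc2 (-0.28), Fut9 (-0.37), Tmem254c (-1.81), Galk1 (-0.52), Fibcd1 (-1.28), Rgs14 (-0.42), Klhl4 (-0.55) and Ttc9 (-0.55). Short entries that may take reads of other genes gave Mir7211 (4.88), Gm23363 (4.22), Mir761 (2.88) and Mir703 (-1.46).

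Single libraries stood far from the other 3 of their group in 15 of 212 sets of 4 values checked, by Dixon's criterion at the 95% level, which chance meets in about 1 in 20 sets. In p16 WT RUN, replicate 9 was low for Mki67 (0.957 TPM), Mocos (2.58 TPM) and H2-D1 (42.4 TPM). Replicate 10 was high for Cdkn1a (18 TPM), Mir7211 (0.294 TPM) and Snhg14 (14.7 TPM) and low for Cxcr4 (3.67 TPM). Replicate 11 was low for Cenpf (0.285 TPM), and replicate 12 was high for Cdk1 (0.0955 TPM) and low for Lepr (0.702 TPM). In p16 KO RUN, replicate 13 was high for Cdkn2a (0.413 TPM), replicate 15 was low for Folr1 (0 TPM) and Tfap2c (0.0945 TPM), and replicate 16 was high for Ccna2 (3.05 TPM) and Aqp4 (97.4 TPM).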

How the results depend on the processing

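No paired analysis was possible because each replicate number belongs to a single group. The count of 671 genes at p under 0.05 ranged from 486 (without p16 WT RUN 9) to 1048 (without p16 WT RUN 12) when each library was left out in turn. Of the 671, 204 were called in every one of those fits and 179 with relative depth as a covariate. The count after adjustment was 0 with all 16 libraries in 1 fit, 2 without the variance trend (Vgll2 joined Nfix), and 1 to 2 with each library left out in turn, where Canx, Stxbp5l or Aqp4 joined. Mitosis and G2/M genes that rose went from 14 to 6 with a mean of at least 1 TPM and to 6 with the depth covariate, and ranged from 9 to 14 with 1 library left out. Tpx2 passed the filter of 1 TPM only through p16 KO RUN. The sedentary count of 1158, in fits chosen after the data were seen, ranged from 557 to 3029. The interaction count of 949 became 3207 with the depth covariate and ranged from 619 (without p16 WT CTL 3) to 2381 (without p16 WT CTL 2), with 1975 without p16 KO CTL 5. Of the 90 named genes at p under 0.05 none turned direction and 32 kept p under 0.05 under every alternative. With the depth covariate 49 of the 90 lost p under 0.05. Genes that turned were past the threshold in neither direction. With each library left out in turn Cdkn2b ranged from -0.0196 to 0.3806, Cdkn2d from -0.0149 to 0.0394, Cdkn1c from -0.3086 to 0.174, Nfib from -0.0648 to 0.0049 and Nfic from -0.0191 to 0.0943, and Nfia was at -0.0018 with the depth covariate. The causes were not tested. Coverage below 1 in genes such as Cdk1 limits what a level there can show.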
